A study of Mus musculus with 5 samples.

Results

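Hypoxia-high epithelial cells were the 10% of tumor epithelial cells with the highest transcript score for low oxygen in MMTV-PyMT mammary tumors. They numbered 1341 of 13412 epithelial cells and of 30340 deposited cells. An epithelial cell here had 2500 to 27500 UMIs (unique molecular identifiers, each standing for 1 captured transcript), at most 20% mitochondrial UMIs, at least 5 UMIs of Epcam, Krt8 and Krt18 together, and no Ptprc. The score of a cell was the mean of ln(1 + UMIs per 10000) over Vegfa, Slc2a1, Car9, Ankrd37, Bnip3 and Ndrg1. Cells were selected on these 6 measured levels, with the highest scores taken over all tumors together. The values that chose the cells are given as description, without a test between the chosen and the other cells.

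The tumors came from FVB/N mice in which the mouse mammary tumor virus promoter expresses the polyoma virus middle T antigen, an oncogene, mainly in mammary epithelium. From 7 weeks of age the mice received 5 mg/kg of isotype IgG2a or of B20-4.1.1, an antibody against VEGF-A, intraperitoneally for 6 weeks. Viable DAPI-negative cells of 15 tumors, 6 isotype and 9 B20-4.1.1, were labeled with tumor-specific oligonucleotides and captured as 5 pools of 3 tumors with 10x Genomics 3' chemistry. No pool mixed treatments, which means that a pool effect and a treatment effect cannot be told apart. The labels do not give the hypoxia classes of the B20-4.1.1 tumors, and these were not compared.

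Cells short of oxygen stabilize the HIF alpha subunits, because the prolyl hydroxylases that mark them for destruction need oxygen. HIF then binds a short core sequence near its targets and raises transcripts for glucose uptake, glycolysis, pH control, mitophagy and angiogenic signals. In fast-growing mammary tumors such cells are known to lie far from perfused vessels, often beside necrosis.

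The deposited matrices held 4014509 to 23726246 UMIs and 810 to 4215 cells per tumor, and epithelial cells numbered from 80 to 1931 per tumor. Hypoxia-high cells numbered from 14 to 221 per tumor. The tumor with 14 of them, tumor 1 of B20-4.1.1 pool 2, was left out of the fits across genes, which used 14 tumors (6 isotype and 8 B20-4.1.1). Within pools no cell barcode was shared by 2 tumors. Between pools 94 barcodes occurred more than once. Median UMIs per cell were 8842 in the hypoxia-high cells and 8668 in the other epithelial cells, and they were higher in the hypoxia-high cells of 6 of 15 tumors. The mitochondrial share was lower in them in 11 of 15 tumors, and genes per cell at an equal 2500 UMIs were more numerous in 11 of 15.

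The cut fell in a continuous distribution. The lowest score inside was 0.453766 and the highest outside 0.453752, and 339 hypoxia-high and 438 other cells lay within 0.05 of the cut. The median score was 0.586 inside and 0.141 outside, and 29.7% of epithelial cells scored 0. Few transcripts carried the score. Of the hypoxia-high cells, 276 had UMIs of 2 of the 6 genes, 489 of 3, 362 of 4, 171 of 5, 39 of all 6 and 4 of a single gene. Ndrg1, a stress-induced gene of differentiation, was the largest contributor in 494 cells, Vegfa in 392, Bnip3 in 202, Slc2a1 in 182, Ankrd37 in 54 and Car9 in 17. With every cell thinned to 2500 UMIs, 778 of the 1341 cells (58.0%) stayed among the highest 10%. The comparisons below rest on sums per tumor, not on single cells.

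The 6 score genes moved together, also where a gene had no part in choosing the cells. The score was rebuilt from the other 5 genes, the highest 10% were taken again, and the left-out gene was compared within tumors. Counts were summed per tumor over the hypoxia-high and over the other epithelial cells and tested with edgeR's quasi-likelihood test with the tumor as a block. Levels are given in CPM, a gene's summed UMIs relative to all UMIs of the same cells with TMM scaling of library sizes.

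Left out of its own score, Vegfa, the ligand that B20-4.1.1 binds, measured 68.1 to 212 CPM (median 146) in the hypoxia-high cells of the 14 tumors. In the other epithelial cells it measured 21.1 to 35.01 CPM (median 27.4). The ranges did not overlap, and the log2 fold difference was 2.34 ± 0.0978 (SE, n = 14, edgeR adjusted p = 6.11e-16). Bnip3, which directs mitochondria to autophagy, differed by 2.01 ± 0.103 when left out, from a median of 33.7 to one of 132 CPM (edgeR adjusted p = 3.15e-14). Ankrd37, a direct HIF target, differed by 1.55 ± 0.138, and Ndrg1 by 1.41 ± 0.119. Slc2a1, the glucose transporter GLUT1, differed by 1.27 ± 0.0891, from a median of 37.4 to one of 83.8 CPM. Car9, a carbonic anhydrase that exports acid, was the only one of the 6 not higher in all 14 tumors. It was higher in 13 of 14, at 9.32 to 40.9 CPM against 6.05 to 14.4 CPM, with a log2 difference of 1.44 ± 0.132.

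**Figure D1:**
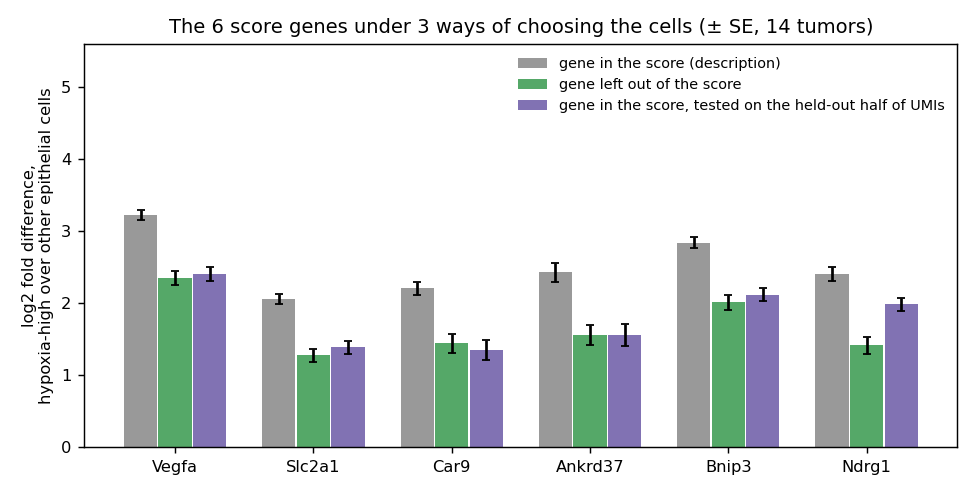
Log2 fold difference between hypoxia-high and other epithelial cells for the 6 score genes on the vertical axis, with bars for the fit estimate and whiskers for its standard error over 14 tumors. Gray bars (the gene helped choose the cells) reach 3.22 for Vegfa, and the green bars (gene left out) lie between 1.27 and 2.34. Purple bars are from held-out UMIs, with the gene kept in the score. For Ndrg1 the purple bar reaches 1.98 and the green bar 1.41.

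Each gene was also higher where each cell's UMIs were split at random, one part choosing the cells and the held-out part being tested. All 6 genes stayed in that score, so each gene still helped choose its cells. In the held-out UMIs the log2 difference was 2.41 ± 0.0939 for Vegfa, 2.11 ± 0.0924 for Bnip3, 1.98 ± 0.0926 for Ndrg1, 1.55 ± 0.156 for Ankrd37, 1.38 ± 0.0904 for Slc2a1 and 1.34 ± 0.137 for Car9 (n = 14 tumors). As chosen, with no test, the 6 genes differed by 2.06 to 3.22. The epithelial label held as well. The 14 epithelial genes outside the rule summed to 3764 to 8076 CPM in the hypoxia-high cells and to 3557 to 6119 CPM in the others.

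Of 9549 genes outside the rule, 1522 (15.9%) were higher and 1284 (13.4%) lower in the hypoxia-high cells at an edgeR adjusted p under 0.05. The median log2 difference of all genes was near 0. These percentages are the background against which the counts of each gene group are read, and the plot of list shares shows both.

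**Figure D2:**
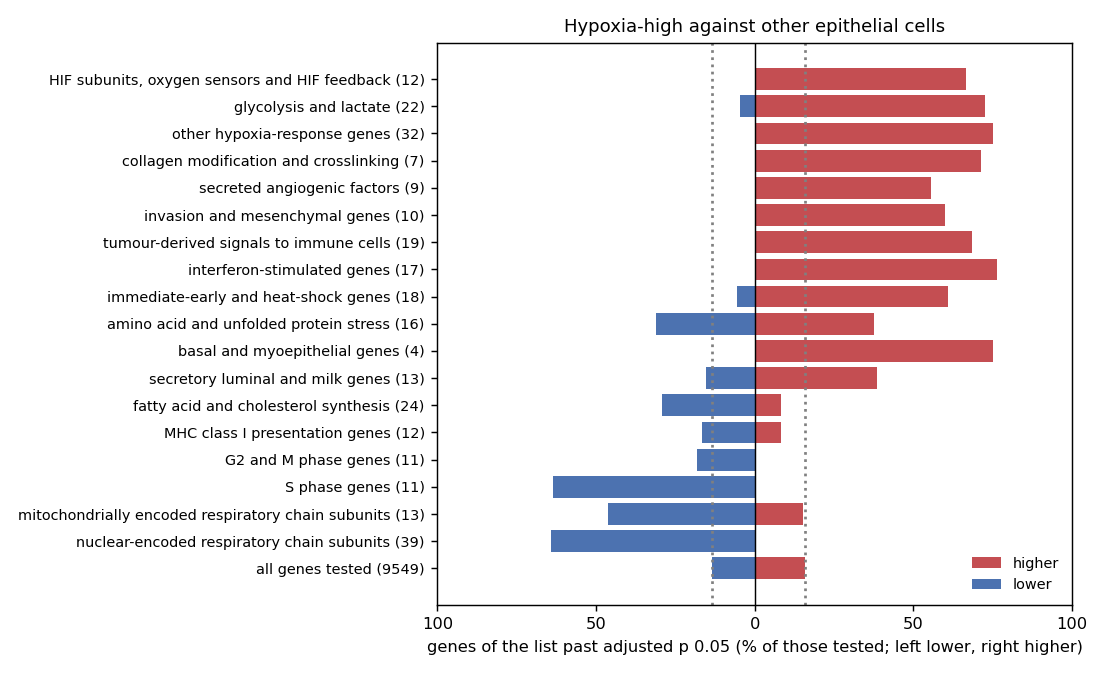
Share of the tested genes of each list that passed an edgeR adjusted p of 0.05, in percent, with lower genes to the left and higher genes to the right, and the number tested in parentheses. Dotted lines mark the shares over all 9549 genes (13.4% lower and 15.9% higher). Lists of the hypoxia response reach far to the right, and the S phase and nuclear respiratory chain lists reach far to the left.

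Among HIF subunits, oxygen sensors and HIF feedback genes, 8 of the 12 tested were higher and none lower, with a median log2 difference of 0.46. Egln3, a prolyl hydroxylase that HIF itself induces, measured 55.4 to 206 CPM (median 146) in the hypoxia-high cells against 21.1 to 50.04 CPM (median 39.8). Its lowest hypoxia-high value lay above the highest value of the other cells. The log2 difference was 1.82 ± 0.0964 (edgeR adjusted p = 5.54e-14), higher in 14 of 14 tumors. Egln1, the main oxygen sensor of this family, rose by 1.25 ± 0.0728 and Bhlhe40, a HIF-induced repressor, by 1.03 ± 0.0986. Mxi1, an antagonist of MYC, rose by 0.85 ± 0.0685. The transcript of Hif1a itself differed little, by 0.25 ± 0.0609 (edgeR adjusted p = 0.00233, higher in 12 of 14 tumors). That call was lost with the thinned score (adjusted p = 0.130) and without B20-4.1.1 pool 3 (adjusted p = 0.0532).

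Of 22 glycolysis and lactate genes, 16 were higher and 1 was lower, with a median log2 difference of 0.71. Slc16a3, the lactate exporter MCT4, had the largest difference of the list. It measured 0 to 39.1 CPM (median 22.8) against 0.220 to 4.34 CPM (median 1.45), a log2 difference of 3.59 ± 0.215 (edgeR adjusted p = 6.13e-13). It was higher in 13 of 14 tumors, and the exception, tumor 2 of isotype pool 2, had no UMI of it in its hypoxia-high cells. Pfkfb3, which makes an activator of phosphofructokinase, rose by 1.82 ± 0.105.

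Pgk1, phosphoglycerate kinase, measured 229 to 758 CPM (median 599) against 111 to 264 CPM (median 177), a log2 difference of 1.60 ± 0.0776 (edgeR adjusted p = 9.05e-15). Hexokinase Hk2 rose by 1.37 ± 0.0666, Pgam1 by 1.15 ± 0.0629, Tpi1 by 0.97 ± 0.0460, Gapdh by 0.85 ± 0.0474, Aldoa by 0.68 ± 0.0553, Pkm by 0.61 ± 0.0449 and Ldha by 0.45 ± 0.0403, each in 14 of 14 tumors. Pdk1, the kinase that closes the entry of pyruvate into mitochondria, rose by 1.12 ± 0.102. The 1 lower gene was Ldhb, the lactate dehydrogenase subunit that favors lactate use, which fell by 0.50 ± 0.0601 on the log2 scale in 13 of 14 tumors. Ldha and Ldhb therefore changed in opposite directions. Several glycolytic genes and Mif have near-identical pseudogene copies, so their levels carry that uncertainty.

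Of 32 other hypoxia-response genes, 24 were higher and none lower, with a median log2 difference of 0.47. Ak4, a mitochondrial adenylate kinase, rose by 2.77 ± 0.181 in 13 of 14 tumors, from a median of 2.62 to one of 19.4 CPM. Fam162a, a mitochondrial HIF target, rose by 1.44 ± 0.0804, Higd1a, a regulator of the respiratory chain, by 1.34 ± 0.0666, and Ddit4, an inhibitor of mTORC1, by 1.29 ± 0.0842. Glycogen synthase Gys1 rose by 1.19 ± 0.125, the transcription factor Nfil3 by 1.03 ± 0.131 and the histone demethylase Kdm3a by 0.87 ± 0.0946. The mitophagy receptor Bnip3l, a relative of Bnip3, rose by 0.82 ± 0.0496.

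Secreted angiogenic factors other than Vegfa rose as well, in 5 of 9 tested with none lower. The count was 2 on held-out UMIs and 3 without B20-4.1.1 pool 3. Adm, the vasoactive peptide adrenomedullin, had the largest difference of any gene named here. It measured 11.0 to 122 CPM (median 42.8) against 1.46 to 6.65 CPM (median 3.62). The ranges did not overlap, and the log2 difference was 3.68 ± 0.185 (edgeR adjusted p = 1.77e-14). Placental growth factor Pgf, a ligand of VEGF receptor FLT1 that is distinct from VEGF-A, rose by 1.58 ± 0.119 in 14 of 14 tumors, from a median of 21.7 to one of 54.7 CPM. Pdgfb rose by 2.17 ± 0.347 in 11 of 14 tumors and Pdgfa by 1.01 ± 0.100 in 13 of 14. Stc2 differed by 0.48 ± 0.160 (edgeR adjusted p = 0.0243), a call that did not last in 7 of 15 alternatives.

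Of 7 collagen modification genes tested, 5 were higher, with a median log2 difference of 1.44. Prolyl 4-hydroxylase subunit P4ha1 measured 31.3 to 76.5 CPM (median 56.2) against 7.79 to 20.6 CPM (median 15.8), a log2 difference of 1.92 ± 0.0896 (edgeR adjusted p = 4.61e-15). P4ha2 rose by 1.79 ± 0.151, the lysyl hydroxylases Plod2 by 1.44 ± 0.107 and Plod1 by 0.71 ± 0.101, and the endoplasmic reticulum oxidase Ero1l by 1.56 ± 0.103.

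The promoter of the gene with the largest difference in the HIF, glycolysis, secreted and collagen lists is shown, and none for the other hypoxia-response genes, because HIF binds the core letters ACGTG or GCGTG. Each line holds the 250 bases before the RefSeq start in GRCm38.p6, 5' to 3' on the gene's strand, for genes with a single listed start. Capitals mark ACGTG or GCGTG on either strand, so the opposite strand reads CACGT or CACGC.
Slc16a3, chr11:120948817-120949066, plus strand: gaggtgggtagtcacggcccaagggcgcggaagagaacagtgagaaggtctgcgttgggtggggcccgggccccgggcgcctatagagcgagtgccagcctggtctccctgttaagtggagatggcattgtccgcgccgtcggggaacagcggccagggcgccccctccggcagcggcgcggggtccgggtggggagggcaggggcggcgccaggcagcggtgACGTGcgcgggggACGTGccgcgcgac
Egln3, chr12:54203875-54204124, minus strand: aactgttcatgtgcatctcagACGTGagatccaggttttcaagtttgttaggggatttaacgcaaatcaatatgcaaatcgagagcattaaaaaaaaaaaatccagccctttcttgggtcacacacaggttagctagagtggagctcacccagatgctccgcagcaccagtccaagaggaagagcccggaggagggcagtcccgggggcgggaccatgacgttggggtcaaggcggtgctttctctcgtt
Adm, chr7:110627407-110627656, plus strand: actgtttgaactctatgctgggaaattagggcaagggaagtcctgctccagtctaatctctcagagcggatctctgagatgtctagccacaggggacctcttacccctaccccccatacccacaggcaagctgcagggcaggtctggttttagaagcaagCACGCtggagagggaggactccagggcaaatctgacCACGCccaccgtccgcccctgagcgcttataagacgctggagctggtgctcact
P4ha1, chr10:59323046-59323295, plus strand: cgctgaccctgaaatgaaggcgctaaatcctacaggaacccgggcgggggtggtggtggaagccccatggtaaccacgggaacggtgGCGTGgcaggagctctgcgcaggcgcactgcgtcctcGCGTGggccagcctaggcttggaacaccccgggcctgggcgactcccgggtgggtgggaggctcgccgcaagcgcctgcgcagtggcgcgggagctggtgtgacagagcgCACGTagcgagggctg
Slc16a3 held 2 matches, Egln3 1, Adm 2 and P4ha1 3. Of all 32851 listed promoters 38.6% held at least 1 match, ACGTG in 16.6% and GCGTG in 28.2%. Among tested genes with a single listed promoter the share was 61.0% of 5966, and it was 77.8% of the 36 such genes that rose in the HIF, glycolysis, other hypoxia, secreted and collagen lists. ACGTG alone was held by 18 of those 36 and by 23.3% of the 5966. Over all genes higher in the hypoxia-high cells with a single listed promoter, 63.8% of 897 held at least 1 match and 26.3% held ACGTG. Among the 835 such lower genes the shares were 56.5% and 21.0%. A match is a description of the letters, not a binding site.

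The rise of the response genes was concentrated at the very top of the score. Mean Adm over the 15 tumors was 5.25 ± 4.36 CPM (SD) in cells between the 80th and 90th percentile of the score, 10.5 ± 11.7 between the 90th and 95th, and 82.8 ± 39.9 above the 95th. Egln3 went from 45.8 ± 20.7 to 74.5 ± 40.6 and 198 ± 77.3 CPM over the same steps. Pgk1 rose more gradually, from 138 ± 23.9 CPM in cells with a score of 0 to 226 ± 102, 315 ± 121 and 728 ± 158 CPM. Deeper cells reach a score above 0 more easily, so the lower steps also differ in depth.

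**Figure D3:**
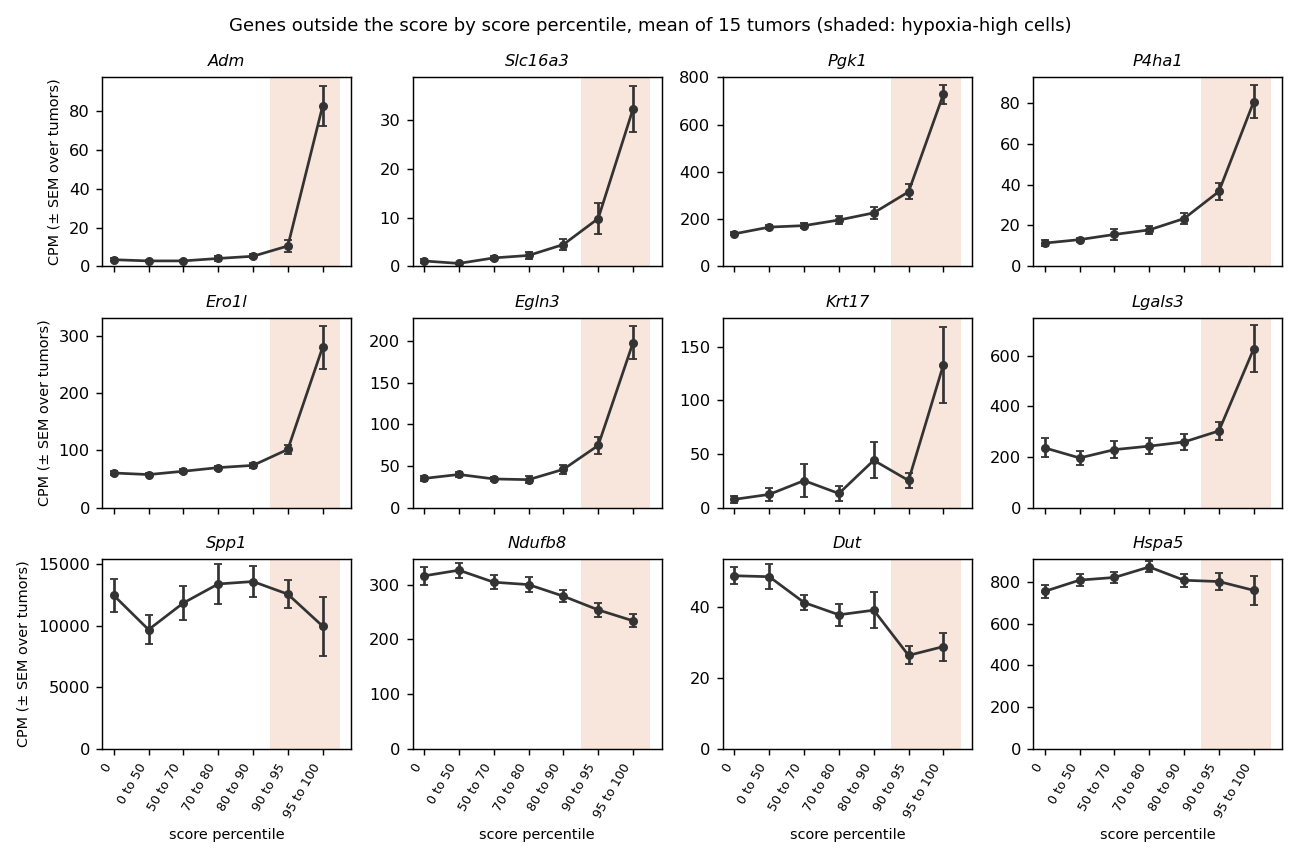
Mean CPM of 12 genes outside the score (vertical axes, each starting at 0) by percentile of the hypoxia score, with standard errors over 15 tumors and the hypoxia-high cells shaded. Adm reaches 82.8 CPM above the 95th percentile against 10.5 just below it, Dut falls toward the right, and Hspa5 stays between 756 and 873 CPM.

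Further genes were named by a rule over all tested genes, hypoxia lists included: an edgeR adjusted p under 0.05, an average of at least 5 log2 CPM and the same direction in 14 of 14 tumors, ordered by size. The largest change was that of Krt17, a keratin of basal and stressed epithelium. It measured 7.85 to 371 CPM (median 62.5) against 1.37 to 61.0 CPM (median 9.03), so the ranges overlapped between tumors, but it was higher within each of the 14 tumors. Its log2 difference was 2.32 ± 0.240 (edgeR adjusted p = 3.85e-08).

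The metallothioneins, which bind zinc, were also named. Mt2 rose by 1.99 ± 0.15003, from a median of 85.1 to one of 298 CPM, and Mt1 by 1.42 ± 0.0996, from 866 to 2129 CPM. Gja1, the gap junction protein connexin 43, rose by 1.62 ± 0.0957, Emp1, a membrane protein of epithelia, by 1.42 ± 0.106, and F3, tissue factor, which starts coagulation, by 1.37 ± 0.139. The other genes that the rule named as higher were Egln3, Pgk1, Ero1l, Fam162a, Hk2 and Higd1a.

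Of 10 invasion and mesenchymal genes, 6 were higher and none lower. Plaur, the urokinase receptor, rose by 1.94 ± 0.191, Tnc, the matrix protein tenascin C, by 1.81 ± 0.186 and Cd44, a hyaluronan receptor, by 0.82 ± 0.0870, each in 14 of 14 tumors. Among basal genes 3 of 4 were higher, with Krt14 at 0.78 ± 0.166. On held-out UMIs 1 basal gene was higher, and Krt14 differed by 0.38 (adjusted p = 0.0758). Among 14 epithelial genes 6 were higher, including the keratin Krt7 (0.98 ± 0.0804), the tight junction gene Cldn4 (0.90 ± 0.119) and E-cadherin Cdh1 (0.41 ± 0.0585), and 1, Ap1m2, was lower. Of 4 squamous genes tested 2 were higher, and of 12 MHC class I presentation genes 1 was higher and 2 lower.

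**Figure D4:**
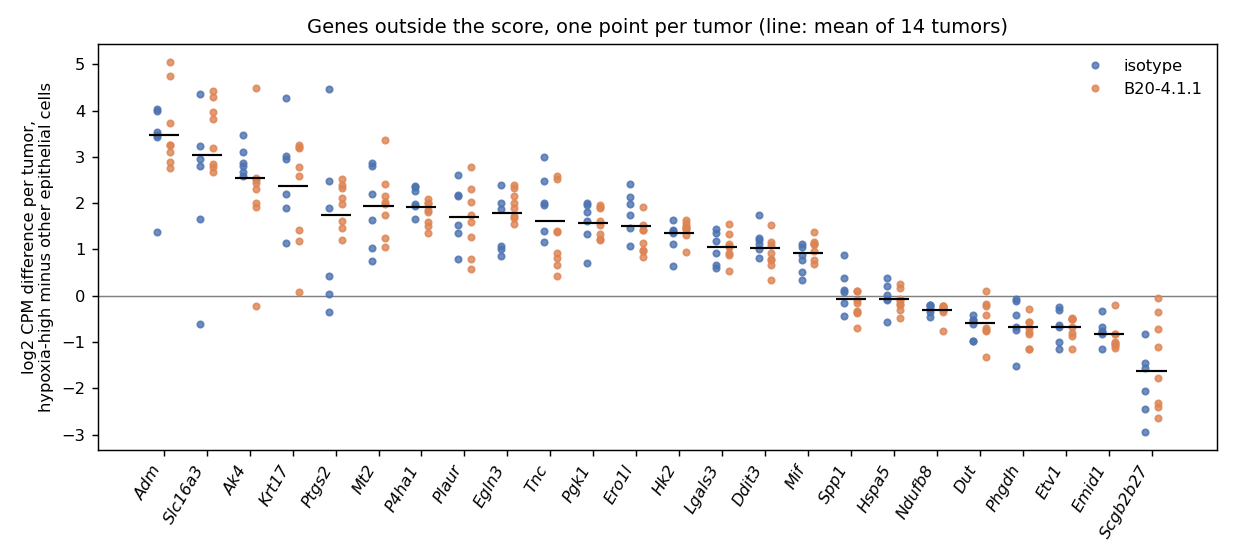
Difference in log2 CPM between hypoxia-high and other epithelial cells of the same tumor (vertical axis) for 24 genes outside the score, with a point per tumor, blue for 6 isotype and orange for 8 B20-4.1.1 tumors, and a line at the mean. Adm, Egln3, Pgk1 and P4ha1 lie above 0 in all 14 tumors, Spp1 lies on both sides of 0, and Scgb2b27 lies below 0 in all 14.

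Of 19 tumor-derived signals to immune cells, 13 were higher and none lower, with a median log2 difference of 0.41. Lgals3, the lectin galectin 3, measured 179 to 754 CPM (median 342) against 101 to 382 CPM (median 157), a log2 difference of 1.06 ± 0.0671 (edgeR adjusted p = 2.18e-12), higher in 14 of 14 tumors. Mif, a cytokine that is also a HIF target, rose by 0.93 ± 0.0616, from a median of 672 to one of 1392 CPM. Ptgs2, the prostaglandin-forming COX-2, rose by 2.13 ± 0.255 in 13 of 14 tumors at low levels. Vsir, the checkpoint ligand VISTA, rose by 0.78 ± 0.16, Nt5e, the adenosine-forming CD73, by 0.85 ± 0.216, the chemokine Cxcl16 by 0.70 ± 0.0954 and Csf1, a macrophage growth factor, by 0.50 ± 0.139. Csf1 was not called without B20-4.1.1 pool 3 (0.34, adjusted p = 0.103), and 8 of these signals were higher on held-out UMIs.

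Spp1, which encodes osteopontin, did not share this pattern. It measured 6400 to 18498 CPM (median 10464) in the hypoxia-high cells and 5928 to 19600 CPM (median 11050) in the other epithelial cells. The log2 difference was -0.06 ± 0.0778 (edgeR adjusted p = 0.580), higher in 6 of 14 tumors. In isotype pool 1 all 3 tumors were higher, by 0.08, 0.87 and 0.39, and without that pool the difference was -0.20 (adjusted p = 0.0184). It was -0.63 in the highest 5% of cells (adjusted p = 0.00145) and 0.00856 without B20-4.1.1 pool 1. No alternative gave a higher Spp1 level that passed the test.

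Stress genes went both ways. Of 16 genes of amino acid and unfolded protein stress, 6 were higher and 5 lower. The transcription factors Ddit3 (CHOP) and Atf4 rose by 1.00 ± 0.0868 and 0.46 ± 0.0508 in 14 of 14 tumors. The chaperone Hspa5 (BiP) measured 557 to 979 CPM against 697 to 963 CPM, a log2 difference of -0.07 ± 0.0597 (edgeR adjusted p = 0.382). Herpud1, an endoplasmic reticulum degradation gene, fell by 0.41 ± 0.0605 and Phgdh, the first enzyme of serine synthesis, fell by 0.62 ± 0.0940 on the log2 scale, the latter in 14 of 14 tumors.

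Of 18 immediate-early and heat-shock genes 11 were higher and 1 lower, with a median log2 difference of 0.20. Klf6 was the largest, at 0.57 ± 0.0658. The count was 7 with the thinned score. Such genes also respond to tissue dissociation, whose part was not tested. Of 17 interferon-stimulated genes 13 were higher and none lower, with Isg15 at 0.52 ± 0.141. This count was not stable. It was 5 without isotype pool 1, 7 without B20-4.1.1 pool 3, 8 with the thinned score and 6 on held-out UMIs. Rsad2, the largest at 2.45 ± 0.440, was higher in 8 of 14 tumors, and DESeq2 did not call it (adjusted p = 0.103).

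The nuclear-encoded respiratory chain moved down as a group and by little. Of 39 subunits 25 were lower and none higher, with a median log2 difference of -0.17, and 16 were lower in the highest 5% of cells. Ndufb8, a complex I subunit, measured 169 to 302 CPM (median 268) against 204 to 399 CPM (median 321), and fell by 0.29 ± 0.0415 on the log2 scale in 14 of 14 tumors (edgeR adjusted p = 6.75e-06). Ndufa4 fell by 0.31 ± 0.0391 and Sdhb, of complex II, fell by 0.22 ± 0.0502. Of the 13 mitochondrially encoded subunits 6 were lower and 2 higher. The lower count was 3 without B20-4.1.1 pool 1, 3 without isotype pool 1 and 2 with the thinned score. Among these mt-Nd4l fell by 0.31 ± 0.0473 on the log2 scale, and mt-Co1 and mt-Nd6 rose by 0.19 ± 0.0368 and 0.27 ± 0.0767. The mt-Nd6 call was lost without B20-4.1.1 pool 3 (adjusted p = 0.129), with the thinned score (0.191), on held-out UMIs (0.172) and in the highest 5% of cells (0.202).

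Replication genes were lower. Of 11 S phase genes tested 7 fell and none rose, with a median log2 difference of -0.50. The count was 4 without isotype pool 1, 4 in the highest 5% of cells and 3 on held-out UMIs. The helicase subunit Mcm4 fell by 0.91 ± 0.187 and thymidylate synthase Tyms fell by 0.64 ± 0.115. Dut, which clears dUTP, measured 18.5 to 45.5 CPM (median 29.5) against 31.6 to 57.0 CPM (median 45.8). It fell by 0.60 ± 0.0857 on the log2 scale in 13 of 14 tumors (edgeR adjusted p = 6.05e-06). Of 11 G2 and M phase genes 2 were lower, Top2a by 1.02 ± 0.265 and Mki67 by 0.80 ± 0.286. Both calls were lost without B20-4.1.1 pool 3 (adjusted p = 0.0587 for Top2a and 0.296 for Mki67), with the thinned score (0.204 and 0.0639) and in the highest 5% of cells (0.0995 and 0.0586), and that of Mki67 also without isotype pool 1 (0.134). The G2 and M phase count ran from 0 without B20-4.1.1 pool 3 to 7 without B20-4.1.1 pool 1.

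Of 24 fatty acid and cholesterol synthesis genes 7 were lower and 2 higher, and 4 were lower without isotype pool 2 or in the highest 5% of cells. Thrsp, a regulator of lipogenesis in mammary gland, fell by 0.77 ± 0.0865, Insig1 by 0.70 ± 0.207 and the isoprenoid enzyme Idi1 fell by 0.72 ± 0.133 on the log2 scale. The Insig1 call was lost without isotype pool 2 (adjusted p = 0.0676), with the thinned score (0.0995) and in the highest 5% of cells (0.0546). The higher genes were the desaturase Scd1 (0.71 ± 0.0778) and the malic enzyme Me1 (0.52 ± 0.0562). Of 13 secretory luminal and milk genes 5 were higher and 2 lower. The caseins Csn2, Csn1s2a and Csn1s1 differed by 2.14 ± 0.322, 2.21 ± 0.342 and 1.30 ± 0.235, higher in 6 of 6 isotype tumors each and in 5, 3 and 3 of 8 B20-4.1.1 tumors. The difference between treatments did not pass its test for any of the 3. In the highest 5% of cells Csn2 and Csn1s2a were no longer called (adjusted p = 0.141 and 0.321). Csn2 was also not called with the thinned score (0.0652), nor Csn1s1 by DESeq2 (0.0606). Csn3, another casein, fell by 0.14 ± 0.0401 on the log2 scale, a call lost without B20-4.1.1 pool 3 (adjusted p = 0.118).

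The rule named 12 genes that were lower in 14 of 14 tumors. The largest was Scgb2b27, a secretoglobin, at 45.5 to 559 CPM (median 125) against 135 to 991 CPM (median 438), a log2 difference of -1.58 ± 0.169 (edgeR adjusted p = 6.56e-08). Emid1, an extracellular matrix gene, fell by 0.85 ± 0.0631, Tmem37 by 0.75 ± 0.0715, the ETS factor Etv1 by 0.67 ± 0.0674, the phosphatase Pgp by 0.66 ± 0.0575 and the water channel Aqp5 by 0.64 ± 0.0577. Cryl1, Kctd14, Pyurf, Phyh and Bricd5 fell by 0.63, 0.61, 0.60, 0.55 and 0.55.

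Markers of other cell types were found at levels that differed between tumors. At least 1 UMI of a neutrophil marker was held by 40.1% of the hypoxia-high and 38.3% of the other epithelial cells. For macrophage markers these shares were 39.7% and 34.6%. Macrophage markers summed to 23.8 to 268 CPM in the hypoxia-high and 29.2 to 261 CPM in the other epithelial cells, and 1 of 6 tested passed, Cd68, at 1.43 ± 0.199, in 12 of 14 tumors. Lyz2, C1qa, C1qb, Tyrobp and Fcer1g did not pass. The count was 0 without B20-4.1.1 pool 1 or pool 3 and 3 in the highest 5% of cells. T cell markers summed to 4.16 to 51.8 CPM against 8.61 to 160 CPM, neutrophil markers to 27.9 to 523 CPM against 70.1 to 337 CPM, and B cell markers to at most 10.8 CPM. Endothelial and fibroblast markers reached at most 11.9 and 19.4 CPM in the hypoxia-high cells, with Emcn, Cldn5, Col1a2, Lum and Cd79b at 0 there. The part of these markers in the results was not tested, and no doublet caller was run.

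Hypoxia-high cells formed a larger share of the epithelial cells in B20-4.1.1 tumors. The share was 5.15% to 7.26% in the 6 isotype tumors (6.20% ± 0.843, SD) and 10.4% to 22.1% in the 9 B20-4.1.1 tumors (15.5% ± 3.30). The groups did not overlap, and the means differed by 9.34 percentage points (exact permutation test over tumors, two-sided p = 0.0002, the smallest that 5005 splits can give). Pool means were 6.77% and 5.62% for isotype and 13.9%, 14.6% and 18.1% for B20-4.1.1. Over the 5 pools the exact permutation p was 0.1, the smallest that 10 splits allow.

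This difference was smaller when every cell was thinned to the same depth, and the part of depth in it was not tested. Median UMIs of the other epithelial cells were 7594 to 9515.5 per isotype tumor and 7359.5 to 11647 per B20-4.1.1 tumor. With every cell thinned to 2500 UMIs the share was 5.26% to 10.5% (8.09% ± 2.12) in isotype and 7.76% to 17.8% (12.5% ± 3.12) in B20-4.1.1 tumors, a difference of 4.39 percentage points (exact permutation p = 0.0112), and the groups overlapped. Vegfa, Slc2a1 and Car9 also belong to a hypoxia score whose difference between these treatments was known. With Ankrd37, Bnip3 and Ndrg1 alone the mean share was 6.42% ± 0.654 under isotype and 14.4% ± 3.65 under B20-4.1.1 (exact permutation p = 0.0002). These 3 genes are also part of the score that chose the cells, so that run is not a check from outside the score. Since the share is counted from the score itself and the earlier results were known, the share is not independent evidence of a treatment effect.

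**Figure D5:**
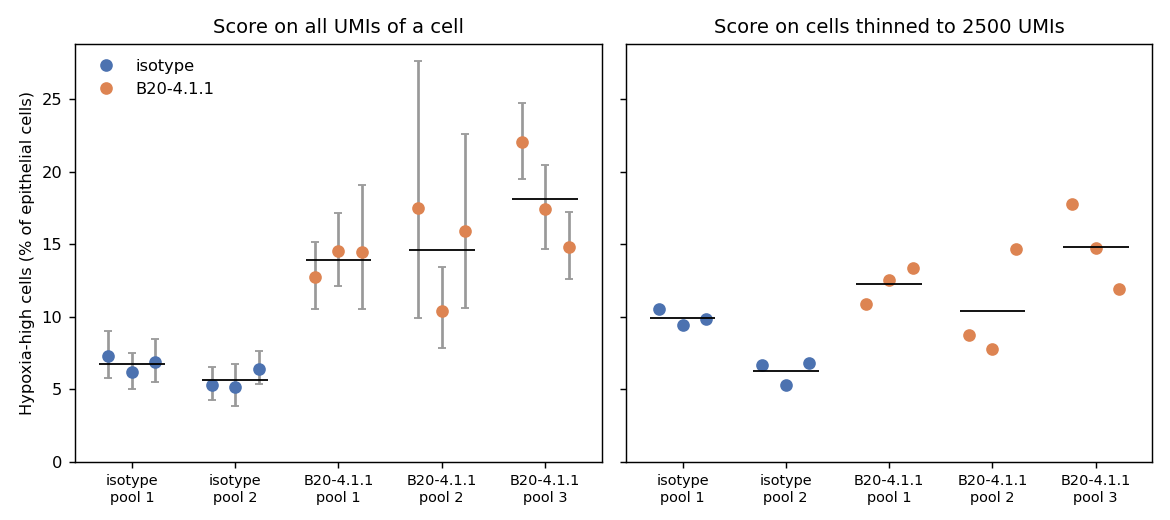
Hypoxia-high cells as a percentage of epithelial cells (vertical axis) in each of the 15 tumors by pool, blue for isotype and orange for B20-4.1.1, with pool means as lines and 95% exact binomial intervals (Clopper-Pearson, counting error only) at left. At left the isotype tumors lie between 5.15% and 7.26% and the B20-4.1.1 tumors between 10.4% and 22.1%. At right, on thinned cells, the groups overlap.

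Among hypoxia-high cells alone, B20-4.1.1 and isotype tumors were compared for 7134 genes. Of these 168 (2.35%) were higher and 159 (2.23%) lower in B20-4.1.1 (edgeR adjusted p under 0.05, 8 against 6 tumors). These counts changed with each pool left out. Without isotype pool 1 they were 6 and 7, and without isotype pool 2 they were 772 and 688. Without B20-4.1.1 pool 1 they were 83 and 69, without pool 2 they were 85 and 91, and without pool 3 they were 43 and 46. With sums per pool they were 0 and 2. In the other epithelial cells of the same tumors, 741 of 11937 genes (6.21%) were higher and 709 (5.94%) lower. T cell markers moved with treatment in those cells, where 6 of 7 tested were higher in B20-4.1.1 with a median log2 difference of 1.26, and their part in these counts was not tested.

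The genes that separated all B20-4.1.1 pools from both isotype pools included keratins and milk genes. Krt14, a basal keratin, measured 76.4 to 265 CPM (median 147) in the hypoxia-high cells of B20-4.1.1 tumors against 13.1 to 75.4 CPM (median 39.5) in isotype tumors. The log2 difference was 1.73 ± 0.302 (edgeR adjusted p = 0.00472), and the isotype mean was exceeded in 8 of 8 B20-4.1.1 tumors. Krt17 rose by 1.89 ± 0.453, Ly6a by 1.52 ± 0.385, Crip1 by 1.44 ± 0.266 and the interferon-induced Xaf1 by 1.43 ± 0.350. Wfdc12, a protease inhibitor gene, differed by 2.48 ± 0.509 (edgeR adjusted p = 0.0117), but by -0.21 with the thinned score.

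Casein Csn1s1 measured 4.43 to 792 CPM (median 135) in B20-4.1.1 against 781 to 3326 CPM (median 2414) in isotype tumors, a log2 difference of -3.12 ± 0.645 (edgeR adjusted p = 0.0121). Csn1s2a fell by 3.35 ± 0.946, Pinc by 2.09 ± 0.288, Btn1a1 by 1.72 ± 0.263, Lalba by 1.46 ± 0.257 and Socs2 fell by 1.44 ± 0.266 on the log2 scale. Without isotype pool 1 none of Krt14, Krt17, Ly6a, Crip1, Xaf1, Wfdc12, Csn1s1, Csn1s2a and Socs2 passed, with the signs kept. Pinc, Btn1a1 and Lalba passed there. With sums per pool Btn1a1 and Lalba were not called (edgeR adjusted p = 0.105 each). In the highest 5% of cells Pinc (0.180) and Btn1a1 (0.0692) were not called. Of 13 secretory luminal and milk genes 4 were lower in B20-4.1.1 hypoxia-high cells and none higher. In the other epithelial cells 4 of 16 were lower and 1 higher. Of the basal genes 2 of 3 were higher in the hypoxia-high cells and 2 of 9 in the other epithelial cells, with none lower in either.

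Of 19 glycolysis genes 7 were higher in B20-4.1.1 hypoxia-high cells and none lower. The score itself was not equal, since the median score of the hypoxia-high cells was 0.530 to 0.568 in the isotype and 0.583 to 0.643 in the B20-4.1.1 tumors. Pgk1 measured 552 to 762 CPM (median 640) against 230 to 612 CPM (median 379), a log2 difference of 0.67 ± 0.168 (edgeR adjusted p = 0.0296). Slc16a3 rose by 1.45 ± 0.294, Pgam1 by 0.64 ± 0.147, Aldoa by 0.61 ± 0.139, Gapdh by 0.57 ± 0.158, Tpi1 by 0.56 ± 0.130 and Gpi1 by 0.52 ± 0.119. In the other epithelial cells 10 of 22 were higher. Lgals3 rose by 1.18 ± 0.210, from a median of 262 to one of 613 CPM, and Mif by 0.59 ± 0.153. None of these 7 glycolysis genes passed without isotype pool 1 (adjusted p from 0.122 for Slc16a3 to 0.525 for Gapdh), with a pool correlation (0.0515 to 0.0961) or in the highest 5% of cells, where Pgk1 differed by 0.21 and Gapdh by 0.27. Without isotype pool 1 the adjusted p was 0.426 for Mif and 0.0502 for Lgals3. Spp1 differed by 0.46 ± 0.189 (edgeR adjusted p = 0.151).

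Of 13 mitochondrially encoded subunits 10 were lower in B20-4.1.1 hypoxia-high cells, with a median log2 difference of -0.58. In the other epithelial cells of the same tumors 11 of 13 were lower, with a median of -0.59. In the hypoxia-high cells mt-Nd3 measured 280 to 454 CPM against 439 to 1235 CPM, a log2 difference of -1.29 ± 0.202. The median mitochondrial share of these cells was 2.32% to 3.60% in B20-4.1.1 and 3.00% to 5.42% in isotype tumors. Isotype pool 1 stood apart, with mt-Nd3 at 1178 to 1235 CPM against 439 to 637 CPM in isotype pool 2. Without isotype pool 1 the mt-Nd3 difference was -0.62 (adjusted p = 0.102), and with pool sums the adjusted p was 0.250. The part of cell quality in this was not tested.

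The contrast between hypoxia-high and other epithelial cells was compared between treatments over 8 against 6 tumors. Of 10175 genes 1 (0.00983%) had a difference of contrasts that passed, Amtn, named after its values were seen because it fell outside the rule. In all, 603 genes had an unadjusted p under 0.05, and DESeq2 called 9. None of the genes in the lists above passed. Egln3, for example, differed between treatments by 0.22 ± 0.190 in this contrast, Pgk1 by -0.04 ± 0.156 and Adm by 0.14 ± 0.380. An unadjusted edgeR p under 0.05 was reached by 9 of 16 secretory luminal and milk genes (median difference -0.66). It was reached by 4 of 7 collagen genes (median -0.37) and 7 of 18 immediate-early and heat-shock genes (median -0.13). Only 2 of 22 glycolysis and 1 of 12 HIF genes reached it. The lists were not tested as sets.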

How the data were processed

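Single-cell RNA of 15 tumors in 5 pools was measured. The authors deposited raw counts of UMIs per gene and cell for each tumor, made with Cell Ranger 6.1.2 per the file headers on build mm10, with bcl2fastq and Seurat 4.3.0 also named in the submitters' processing notes. The deposited counts were used without normalization or rounding. Cells were filtered, chosen and summed per tumor as stated in the results in Python 3.11.15 (scipy 1.17.1, pandas 2.3.3, numpy 2.4.6). Tumors with at least 20 hypoxia-high cells entered the fits.

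Sums were tested with edgeR 4.0.16 (limma 3.58.1, R 4.3.3): TMM scaling, filterByExpr, quasi-likelihood F test, Benjamini-Hochberg adjustment over all genes tested, adjusted p under 0.05. The tumor was a block for hypoxia-high against other cells, since both sums come from the same animal's tumor. DESeq2 1.42.0 was an alternative. The 10 rule genes were not tested. For shares, the test was a two-sided exact permutation over tumors. The fits were tested on simulated data with tumor effects and no pool effect, so pool effects were not covered. Reported genes were those of the gene lists and, over all genes tested, up to 12 per direction with the largest change, an average of at least 5 log2 CPM and 1 direction in 14 of 14 tumors, leaving out mitochondrial genes and unnamed gene models. A few genes that the rule or the lists hold are not reported here. Between treatments they were up to 6 per direction with all B20-4.1.1 pool means on 1 side of the isotype pool means. The cells and gene lists were chosen with earlier results of these data known. Intervals cover counting error only. The labels do not say whether tumors of a pool came from separate mice, so p-values measure the spread between these tumors.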

Additional observations from a re-analysis of the deposited data

Results flagged for a closer look

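In 246 groups of 6, 8 or 9 tumors, 23 had 1 tumor far from the others by Dixon's test, which chance gives in about 1 of 20 groups. Each value below is the log2 difference between hypoxia-high and other epithelial cells in that tumor, with the range of the other tumors of its treatment.

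Tumor 3 of B20-4.1.1 pool 2 stood apart for 6 genes. Cd68 was -0.026 there (others 1.11 to 1.78), Cxcl16 -0.89 (0.33 to 1.16), Emid1 -0.21 (-1.14 to -0.82), Ldhb 0.23 (-0.82 to -0.35), Ndufb8 -0.76 (-0.35 to -0.21) and P4ha2 -0.41 (1.32 to 2.26 in the others). Tumor 3 of B20-4.1.1 pool 1 stood apart for Mki67 at 2.99 (-3.31 to -0.35), Nt5e at -2.25 (0.06 to 1.55) and Tyms at 0.52 (-0.95 to -0.48). In B20-4.1.1 pool 3, Hk2 was 0.94 in tumor 1 (1.30 to 1.63) and Sdhb -0.63 in tumor 2 (-0.29 to -0.07).

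Among isotype tumors, Adm was 1.37 in tumor 1 of pool 1 (3.44 to 4.03) and Vsir 1.66 in tumor 3 of pool 1 (0.02 to 0.61). In pool 2, tumor 1 had Herpud1 at 0.037 (-0.54 to -0.35), Kctd14 at -1.15 (-0.42 to -0.15) and Rsad2 at -2.44 (2.01 to 4.60). Tumor 2 had Pgam1 at 0.42 (1.03 to 1.30) and Top2a at -5.31 (-1.93 to -0.39), and tumor 3 had Cryl1 at -1.12 (-0.39 to -0.02).

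On the scale of log2(CPM + 1) in the hypoxia-high cells, Btn1a1 was 8.27 in tumor 2 of isotype pool 2 (7.19 to 7.48), Slc16a3 was 0 in the same tumor (2.74 to 4.38), Spp1 was 13.73 in tumor 2 of isotype pool 1 (12.80 to 13.10), and Pinc was 4.89 in tumor 1 of B20-4.1.1 pool 1 (3.25 to 3.98).

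The difference between hypoxia-high and other epithelial cells differed between treatments for Amtn, which encodes the enamel protein amelotin, by -5.36 ± 0.839 on the log2 scale, B20-4.1.1 minus isotype (edgeR adjusted p = 0.00989). Its UMIs in hypoxia-high cells were 1, 19 and 35 in isotype pool 1 and 1, 3 and 2 in isotype pool 2, and from 0 to 2 in the B20-4.1.1 tumors. Without isotype pool 1 the adjusted p was 0.686, and DESeq2 gave no adjusted p.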

How the results depend on the processing

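For hypoxia-high against other epithelial cells, 770 genes were higher and 416 lower with no replicate block for the tumor, and 860 and 648 on held-out UMIs. Leaving out a pool gave 1016 to 1525 higher and 788 to 1345 lower. Without the low-count filter 1102 of 21447 genes were higher and 1876 lower, so lower genes outnumbered higher ones there. Replicate numbers in the labels pair no samples across treatments. Between treatments among hypoxia-high cells the counts were 396 and 317 with cells chosen within each tumor, 27 and 36 in the highest 5%, 126 and 96 with the thinned score, 22 and 25 with a pool correlation, 0 and 2 with pool sums, and 6 to 772 and 7 to 688 without a pool. In the other epithelial cells they were 140 to 2922 and 80 to 2639 without a pool. The difference of contrasts gave 9 genes with DESeq2, 96 without the low-count filter, 92 chosen within tumors, 10 in the highest 5%, and 2 to 11 without a pool. The share difference was 9.34 points over pools (exact permutation p = 0.1). Spp1 was 0.00856 without B20-4.1.1 pool 1 and -0.20 without isotype pool 1 (range over pools -0.20 to 0.00856), -0.63 in the highest 5%, and Wfdc12 -0.21 with the thinned score. The cause was not tested. Of the values for named genes under alternatives, 1378 kept direction and call and 52 lost the call in the first comparison, and 232 and 102 between treatments. Alternatives with a minimum of 10 hypoxia-high cells, and size factors or pools left out in the other epithelial cells, were chosen after seeing the data. Depth limits single-cell membership: a score rests on few UMIs per cell.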
